A study of Mus musculus with 11 samples.

Results

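Gata2, Gata3, Gata4, Gata5, Gata6, Sox17 and Sox7 were examined in mouse embryonic stem cells, each as its gene body plus 10 kb on both sides, and these 7 genes were taken by name from 21627 protein-coding genes on chromosomes 1 to 19 and X. The cells were E14, an established line of 129/Ola background kept with fetal bovine serum and leukemia inhibitory factor, which holds them undifferentiated. CUT&Tag-BS was used: an antibody brings a Tn5 transposase to chromatin with a histone mark, and the cut fragments are bisulfite converted, so that each read reports the mark and its CpG methylation. The 11 samples were 8 bisulfite libraries and 3 controls without bisulfite. H3K4me1 and H3K9me3 had a bisulfite run 1 (paired 35 bp reads) and run 2 (75 bp reads) from 250000 cells, H3K27me3 had bisulfite libraries from 4000, 20000, 100000 and 250000 cells, and each mark had 1 control from 250000 cells. All came from the same line, with no other treatment named in the labels, so marks and cell numbers are compared, not genotypes.

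GATA factors are zinc finger proteins that bind the GATA motif. Gata4 and Gata6 drive primitive endoderm and, with Gata5, heart and gut development, while Gata2 and Gata3 act in blood, trophoblast and other lineages; Sox17 and Sox7 are HMG box factors of the SoxF group that act in endoderm and vascular endothelium. In embryonic stem cells such lineage genes are known targets of Polycomb repressive complexes, which deposit H3K27me3 over CpG islands, often beside methylation of H3 lysine 4. CpG islands are usually kept free of DNA methylation, whereas most CpGs elsewhere in the genome are methylated.

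The bisulfite libraries held 4915289 and 9684591 CpG calls for H3K4me1, 1997957 and 6301370 for H3K9me3, and 377316, 5016004, 24455405 and 37159887 for H3K27me3 in order of cell number, on chromosomes 1 to 19 and X. A call is a read's verdict, methylated or not, at 1 CpG. Each mark and cell number had a single library, and the labels tell the runs of a mark apart by read length, not as separate libraries. Of CpGs called exactly 1 time in each run in the 7 windows, 252 of 271 had the same state for H3K4me1 and 48 of 49 for H3K9me3. How often separate libraries would share a state was not tested, so these counts do not settle whether the runs were 1 library. The runs were counted as 1 sample, so no value has a replicate error, and intervals (95%, Wilson for a level and Newcombe for a difference) cover counting error only. In these bulk libraries a mark on fewer cells and a weaker mark in every cell cannot be told apart. Of embryonic stem cell genes, Pou5f1, Sox2, Nanog, Zfp42 and Esrrb all carried an H3K4me1 peak in run 2, on 16.4 to 62.9% of the window. Such a peak was in 45.3% of all gene windows and at 6 of the 7 genes studied here. Its presence therefore does not identify the cell type by itself. Of the 5 embryonic stem cell genes, Esrrb also had an H3K27me3 peak (38.4% of its window, 250000 cells). No expression data were used here.

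In RefSeq (GRCm38.p6) Gata2 lies at chr6:88193891-88207032, Gata3 at chr2:9857078-9887953, Gata4 at chr14:63198914-63271712 and Gata5 at chr2:180325088-180335503. Gata6 lies at chr18:11052510-11085636, Sox17 at chr1:4490928-4497426 and Sox7 at chr14:63943706-63950732. The windows were from 26499 bp (Sox17) to 92799 bp (Gata4) long. That of Gata4 also holds part of Neil2, a DNA repair glycosylase gene, and the other 6 hold no further protein-coding gene. Gata2 was the most CpG-dense, with 25.4 CpGs per kb, a density reached by 1.30% of gene windows.

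The question asked of the peak lists was which marks lay over the 7 genes. All 7 windows held an H3K27me3 peak in the 250000-cell list, where 42.3% of all gene windows did, and the peaks were broad. Peaks covered 76.7% of the window at Sox17, 68.3% at Gata2, 56.4% at Gata5, 56.3% at Gata3, 41.1% at Gata4, 38.1% at Gata6 and 27.1% at Sox7. Coverage reached 50% at 4 of the 7 genes, against 5.06% of all gene windows. The control list gave a peak at all 7 (46.7% of windows) and 50% coverage at 4 (6.39%). At 100000 and 20000 cells 50% was reached at 3 (3.96%) and 2 genes (1.44%). The lists carry no scores, so covered bases describe the extent of a mark, not its strength.

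The peaks differed in width and in their place relative to the start site. At Gata4 the main H3K27me3 peak was 36756 bp wide, from 1.2 kb before the start site used to 35.5 kb into the gene. At Gata3 it was 31515 bp, from 22.2 kb before to 9.3 kb after the start, and at Gata2 it was 22646 bp, from 6.2 kb before to 16.4 kb after. At every gene the widest peak ran past the start site used on both sides. At Gata2 and Sox17 it enclosed the whole gene. The widest peaks at Gata6, Gata5 and Sox17 were 20243, 17165 and 16810 bp. Sox7 had the narrowest, 7317 bp from 3.6 kb before to 3.7 kb after the start. The median peak of that list was 3206 bp.

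H3K4me1 was more uneven across the family. A run 2 peak was present in 6 of 7 windows, against 45.3% of all gene windows, and covered 26.3% of the window at Gata2, 17.4% at Gata3 and 15.8% at Sox7. Gata6 had 5.43% and Sox17 4.94% of the window covered, Gata4 had a single 501 bp peak (0.540%), and Gata5 had none. Run 1 and the control also had a peak at 6 of 7, each against 47.2% of windows. Run 1 covered 27.7, 19.96, 18.2, 4.85, 5.26, 0.540 and 0% for Gata2, Gata3, Sox7, Gata6, Sox17, Gata4 and Gata5. Thus the order from Gata2 to Gata5 was the same in both runs except that Gata6 and Sox17 changed places. An H3K27me3 peak and an H3K4me1 run 2 peak lay in the same window at 6 of the 7 genes, against 24% of all gene windows.

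No H3K9me3 peak lay over any of the 7 genes in run 1, run 2 or the control. All gene windows held such a peak in 14.7, 20.3 and 14.2% of cases in those lists. H3K9me3 marks constitutive heterochromatin and silenced repeats.

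**Figure D1:**
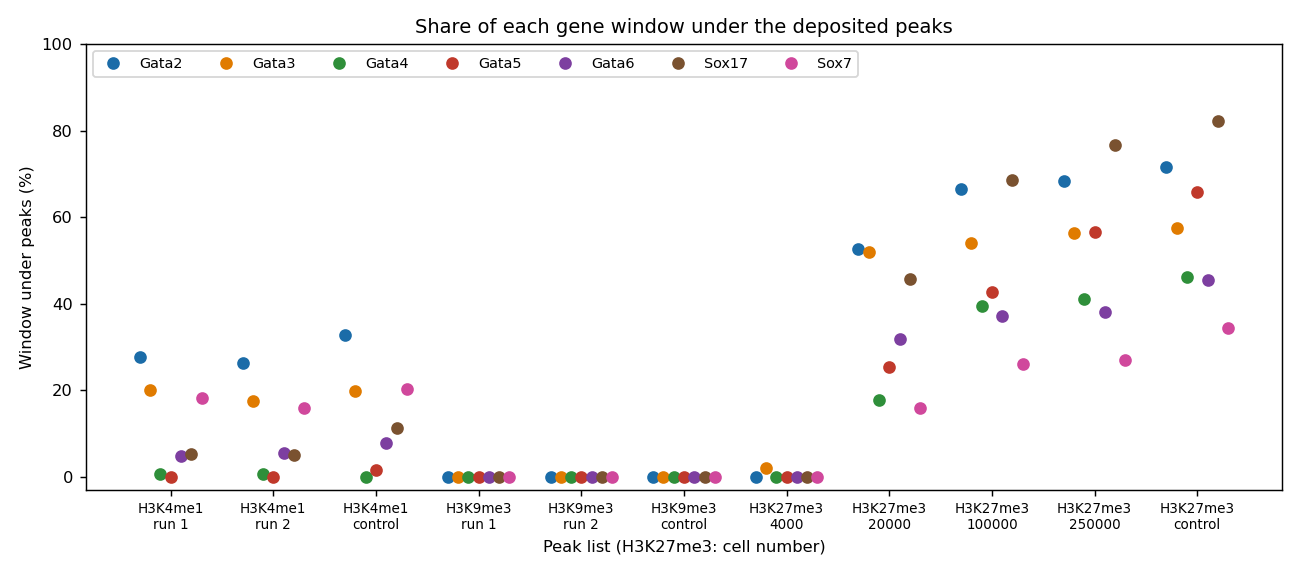
Share of each gene window (gene body plus 10 kb on both sides, %) under the deposited peaks of the 11 lists; each point is 1 gene in 1 list, with no replicates. The 7 genes sit at 0 in the H3K9me3 lists and between 27.1 and 76.7% in the 250000-cell H3K27me3 list.

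The promoter sequences of Gata2, Gata3 and Gata5 are shown because only these 3 genes had a promoter entry. They lie inside the H3K27me3 peaks, as do the start sites used for the other genes. The CpGs in these sequences are the ones whose methylation was read. Each is the 250 bases before a start site, from RefSeq on GRCm38.p6, 5′ to 3′ on the gene's strand, with every CpG in capitals. All 407620 promoter CpGs of that table on chromosomes 1 to 19 and X were at positions listed in the deposited CpG table (mm10). Gata2 has an entry at the gene start, chr6:88193641-88193890, and another inside the gene, chr6:88198414-88198663, both on the plus strand. Gata3 lies at chr2:9878601-9878850 and Gata5 at chr2:180334680-180334929, both on the minus strand.
Gata2 at the gene start: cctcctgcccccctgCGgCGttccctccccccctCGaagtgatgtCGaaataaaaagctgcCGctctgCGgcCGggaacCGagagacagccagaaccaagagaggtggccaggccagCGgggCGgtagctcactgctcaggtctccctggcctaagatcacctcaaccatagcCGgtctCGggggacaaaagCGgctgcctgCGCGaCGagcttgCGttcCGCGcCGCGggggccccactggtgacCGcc
Gata2 inside the gene: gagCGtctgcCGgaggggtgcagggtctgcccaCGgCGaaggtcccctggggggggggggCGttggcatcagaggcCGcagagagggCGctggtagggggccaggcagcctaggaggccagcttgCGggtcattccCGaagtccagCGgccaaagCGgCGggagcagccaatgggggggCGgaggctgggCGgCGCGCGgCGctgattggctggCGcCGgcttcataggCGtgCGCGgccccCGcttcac
Gata3: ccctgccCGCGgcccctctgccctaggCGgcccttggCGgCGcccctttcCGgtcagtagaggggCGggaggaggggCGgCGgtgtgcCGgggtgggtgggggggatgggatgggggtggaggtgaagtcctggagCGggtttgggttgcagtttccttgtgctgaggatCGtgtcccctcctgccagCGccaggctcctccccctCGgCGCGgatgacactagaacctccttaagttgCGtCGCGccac
Gata5: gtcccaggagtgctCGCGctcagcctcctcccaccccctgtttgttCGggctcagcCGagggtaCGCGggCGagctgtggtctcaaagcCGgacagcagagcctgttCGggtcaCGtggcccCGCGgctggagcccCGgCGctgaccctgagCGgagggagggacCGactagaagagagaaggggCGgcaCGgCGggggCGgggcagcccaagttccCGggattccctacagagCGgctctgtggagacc

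These stretches were CpG rich and low in methylation, and those of inner Gata2 and Gata3 were nearly free of it. They held 22, 24, 19 and 22 CpGs in that order, against a median of 6 over 32851 promoter entries. In the 250000-cell H3K27me3 library, 6 of 1497 calls were methylated in the inner Gata2 promoter (0.401%, interval 0.184 to 0.872%) and 4 of 1102 in that of Gata3 (0.363%, 0.141 to 0.930%). The Gata5 stretch was at 2.89% (2.19 to 3.79%, 1698 calls), and the outer Gata2 stretch was highest at 6.51% (4.97 to 8.48%, 768 calls). Every CpG of the 4 stretches had at least 10 calls. No methylated call was found at 19 of 24 CpGs in the inner Gata2 promoter and at 16 of 19 in Gata3, but at only 7 of 22 in the outer Gata2 promoter and 7 of 22 in Gata5. The most methylated single CpG was at base 16 of the outer Gata2 stretch (19.05% of 21 calls). H3K4me1 run 2 read 7.14, 1.02, 1.06 and 2.27% over the same stretches, in the order printed, from 28, 98, 94 and 44 calls. The motif of GATA factors was sought on both strands as the letters GATA with A or T before them and A or G after them, 4 forms that cannot lie on the same bases of a strand. None was in these 4 stretches, and 26.5% of all promoter entries of the same length held at least 1.

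Over 1000 bp on each side of the start site, methylation in the 250000-cell H3K27me3 library was under 20% at 6 of 7 genes, against 77.6% of all 13129 promoters with at least 20 calls. That share was near the background, so the count says little about these genes. It was 0.681% (0.469 to 0.989%) at Gata3, 1.05% (0.812 to 1.35%) at Gata6, 4.87% (4.03 to 5.87%) at Sox7 and 7.33% (6.77 to 7.93%) at Gata2. Sox17 read 11.9% (11.1 to 12.8%) and Gata5 12.3% (11.6 to 12.99%), and these intervals overlapped. The levels of Gata3 and Gata6 were over 10 times lower than those of Sox17 and Gata5, and lay under the all-promoter median of 4.97%. The interval of Sox7 included that median. Gata2, Sox17, Gata5 and Gata4 lay above it, as did the median of the 7 genes, 7.33%.

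Gata4 was the exception at its annotated gene end. Start sites of Gata4, Gata6, Sox17 and Sox7 had no promoter entry and were set at whichever gene end was richer in CpGs. At Gata4 the 2 kb there held only 27 CpGs, with 70.3% methylation on 128 calls (61.9 to 77.5%). Only 1 of these CpGs had at least 10 calls, and this gene end may not be the main Gata4 promoter in these cells. The stretch of 2 kb with most CpGs in the gene, chr14:63244743-63246743, lay about 26 kb further in, and held 112 CpGs at 4.88% (4.27 to 5.57%, 4225 calls). That stretch was chosen after the low CpG count at the gene end was seen, from CpG number alone. The CpG-densest 2 kb of Sox17, chr1:4491702-4493702, had 166 CpGs at 0.545% (0.438 to 0.679%) from 14492 calls, below the 11.9% at the gene end. The densest 2 kb in the gene read 2.89% at Gata2, below its start site. At Gata5 it read 11.04%, but was nearly the same stretch as the 2 kb around the start site (137 and 136 CpGs). The densest 2 kb read 2.79% at Gata3 and 2.54% at Gata6, above their start sites. At Sox7 the stretch taken from the gene read 10.15%, but held only 74 CpGs. The 2 kb around the Sox7 start site was denser, with 129 CpGs at 4.87%.

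Methylation along each gene gave these low stretches their borders. The longest run of measured CpGs (at least 10 calls each) that were all under 10% was 3256 bp at Gata3 (163 CpGs, 0.981%), reaching from 1.3 kb before to 1.9 kb after the start site. It was 2381 bp at Gata6 (116 CpGs, 1.30%), centred on the start, and 2170 bp at Sox17 (173 CpGs, 0.551%), from 3.6 to 5.7 kb into the gene. The runs were shorter at Gata2 (1025 bp, 71 CpGs), Sox7 (926 bp, 71 CpGs), Gata4 (772 bp, 58 CpGs, from 26.0 to 26.8 kb into the gene) and Gata5 (689 bp, 56 CpGs). At Gata3 and Gata6 the run enclosed the whole 1000 bp on each side of the start site, so their low promoter levels rest on the same calls.

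Methylated CpGs were found under the same H3K27me3 peaks. Of CpGs with at least 10 calls in the 250000-cell library, all of which lay under its peaks, the share over 80% methylated was 30.2% at Gata5 (62 of 205), and from 5.37% (Gata2) to 8.45% (Gata3) at the other 6 genes. Over all such CpGs of the library the share was 15.7%. At Gata5 the level outside the 2 kb around the start site was 84.2% (82.7 to 85.7%, 2322 calls), although the peak spanned 17165 bp. The Gata5 peak thus held a narrow low-methylation core in a highly methylated flank. Gata6 differed: bins of 1 kb stayed under 20% from 5 kb before to 3 kb after its start.

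**Figure D2:**
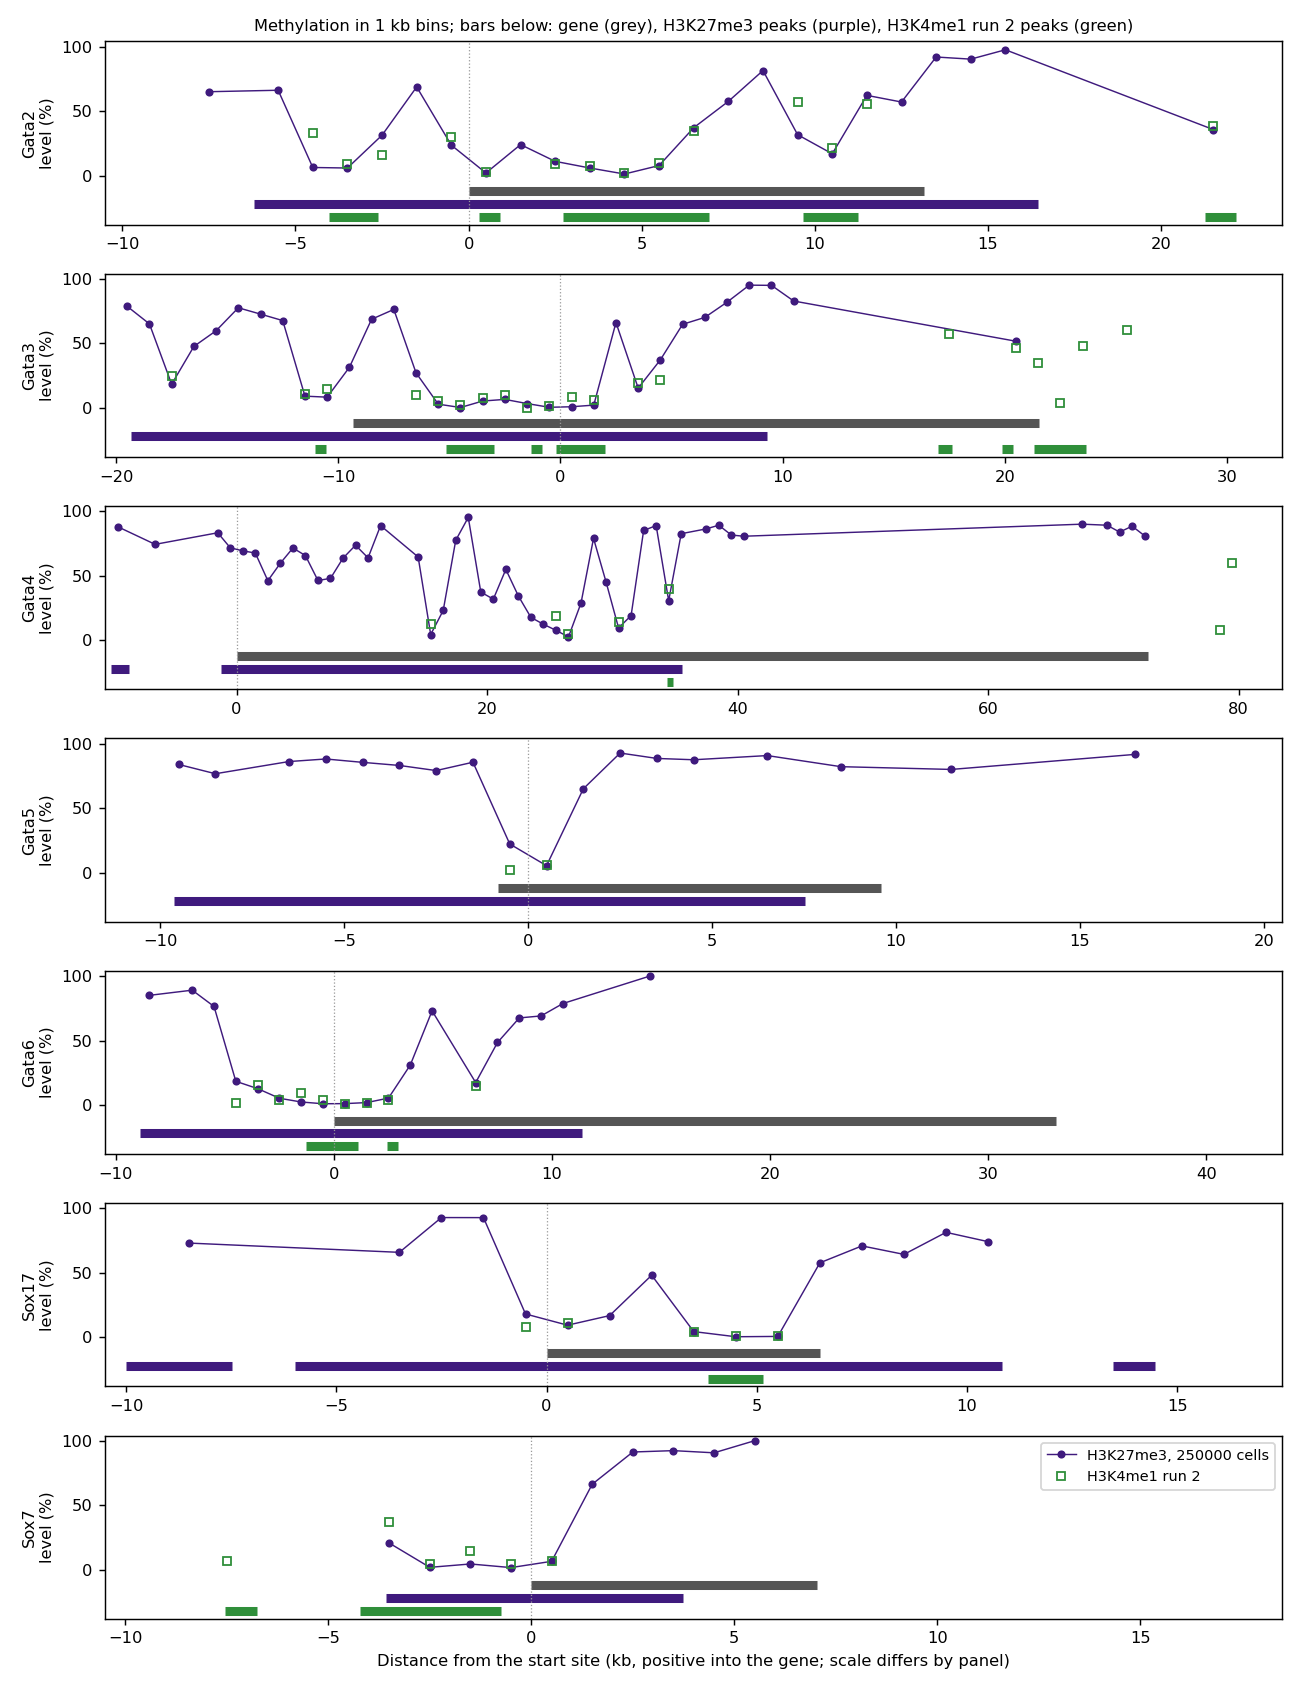
Methylation level (%) in 1 kb bins with at least 20 calls against distance from the start site (kb), for the 250000-cell H3K27me3 library (filled circles) and H3K4me1 run 2 (open squares); bars mark the gene and the peaks. At Gata5 the low core is about 2 kb wide, while bins of Gata6 stay under 20% from 5 kb before to 3 kb after its start.

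The edges of the widest H3K27me3 peak of each gene were more methylated than its middle. Within 1 kb of the edge the level was 85.3% at Gata2, 83.5% at Gata3, 80.2% at Gata4, 82.8% at Gata5, 77.1% at Gata6 and 81.1% at Sox17, from 53 to 192 calls each. More than 3 kb from the edge it was 15.8, 14.7, 20.6, 25.6, 9.02 and 6.97% in the same order, from 10560 to 38844 calls. Sox7, with the narrowest peak, read 28.8% (24.3 to 33.8%) near the edge and 2.81% (2.15 to 3.65%) in the middle, so its edge was far less methylated than those of the other 6. From 1 to 3 kb the level was 62.4 to 90.7% at 5 genes, but 20% at Sox7 and 12.5% (11.1 to 14.1%) at Gata2, there below its middle. Over 3645 peaks of at least 7 kb with 20 calls in each zone, the median levels were 78.3% within 1 kb of the edge, 68.2% from 1 to 3 kb and 25.9% further in. Calls per CpG rose inward as well, for example from 7.57 to 73.3 at Sox17.

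Comparing bases inside and outside the H3K27me3 peaks within each window, the level was lower inside at all 7 genes. It was 10.6% (10.2 to 10.97%) inside and 85.3% (79.7 to 89.5%) outside at Gata6, and 26.8% (25.9 to 27.6%) inside and 84.3% (77.8 to 89.1%) outside at Gata5. The lowest outside level was at Gata2, 63.6% (54.6 to 71.7%), beside 15.8% inside. Inside was lower in 85.5% of 8805 gene windows with 20 calls on each side, with medians of 25.2 and 73.4%. Only 31 to 581 calls per gene came from outside the peaks, against 2982 to 39217 from inside, and the peaks are those of this same library. CpG density was also higher inside at all 7 genes, for example 32.85 against 9.34 CpGs per kb at Gata2. Its part in the difference was not tested.

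Bases under peaks of both H3K27me3 and H3K4me1 (run 2) were less methylated than bases under an H3K27me3 peak alone at 5 of the 6 genes that had both. Over all gene windows with 20 calls in each class the level was lower under both in 83.4% of 2850, with medians of 10.5 and 30.8%, so the share at these genes was near the background. Sox17 read 0.498% (0.372 to 0.665%) under both marks and 13.8% (13.3 to 14.4%) under H3K27me3 alone, and Gata3 1.97% (1.78 to 2.18%) and 27.2% (26.6 to 27.8%). Gata6 read 2.78 and 15.0%, Sox7 3.69 and 12.4%, and Gata2 8.76 and 33.6%. Gata4 ran the other way, with 56.9% (44.1 to 68.8%) under both marks, but its overlap was 501 bp with 7 CpGs and 58 calls. CpG density moved with this contrast: the overlap held 75.6 CpGs per kb at Sox17 and 48.5 at Gata3, against 13.5 and 20.9 under H3K27me3 alone, while at Sox7 it was 27.4 against 32.9. The part of CpG density in the difference was not tested.

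**Figure D3:**
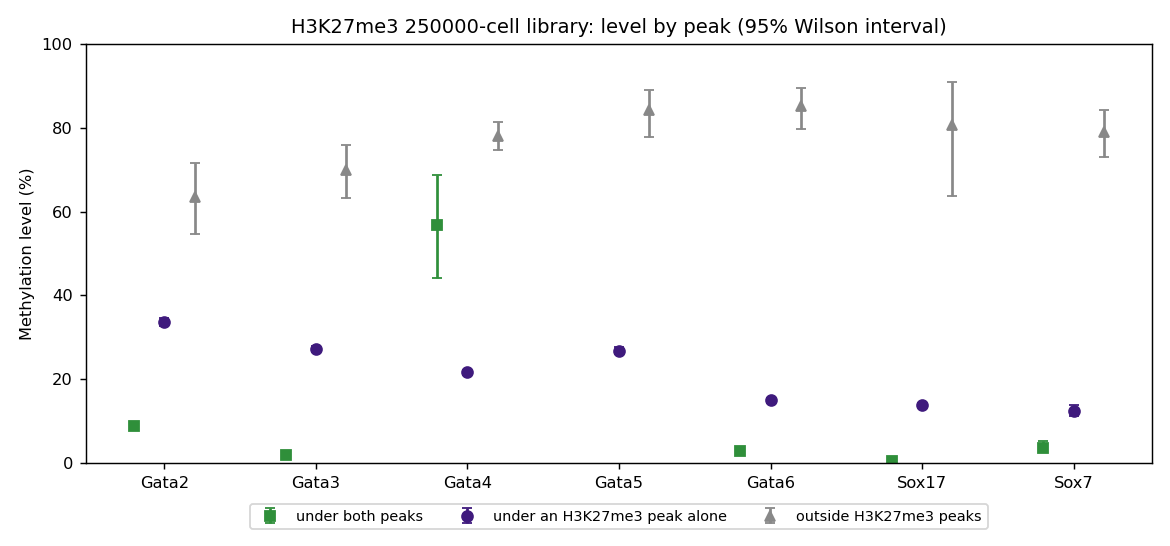
Methylation level (%, 95% Wilson interval) in the 250000-cell H3K27me3 library for bases under peaks of both H3K27me3 and H3K4me1 run 2, under an H3K27me3 peak alone, and outside H3K27me3 peaks, by gene. The 7 values outside the peaks lie between 63.6 and 85.3%, and Gata5 has no base under both.

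The next comparison set the methylation read on H3K27me3 fragments against that read on H3K4me1 fragments. Over the whole window the 250000-cell H3K27me3 level was 15.9% at Gata2, 15.6% at Gata3, 23.4% at Gata4, 27.6% at Gata5, 11.2% at Gata6, 8.73% at Sox17 and 14.5% at Sox7. H3K4me1 run 1 and run 2 gave 14.1 and 15.3% at Gata2, 14.8 and 15.6% at Gata3, 16.0 and 19.9% at Gata4, 15.8 and 10.1% at Gata5, 4.92 and 4.94% at Gata6, 4.51 and 3.60% at Sox17, and 14.5 and 12.1% at Sox7. Both marks thus read low levels at these genes, with Sox17 and Gata6 lowest in each. The median of the 7 genes on H3K27me3 fragments was 15.6%, against 46.0% over 19214 gene windows, and on H3K4me1 run 2 it was 12.1% against 32.4%.

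A gene window was called different where the levels differed by at least 20 percentage points with at least 20 calls in every library used. None of the 7 was called, against 28.5% of 15455 windows (26.1% with H3K27me3 higher and 2.36% lower). The H3K27me3 level was higher than the mean of the H3K4me1 runs by 0.41 (Gata3), 1.21 (Sox7), 1.22 (Gata2), 4.67 (Sox17), 5.44 (Gata4), 6.23 (Gata6) and 14.6 points (Gata5). With run 2 alone no gene passed either, against 27% of windows with H3K27me3 higher and 2.69% lower. The Newcombe interval against run 2 excluded 0 at Gata5 (12.8 to 20.8 points), Gata6 (4.76 to 7.39) and Sox17 (3.43 to 6.34), and included it at Gata2, Gata3, Gata4 and Sox7. The libraries do not read the same CpGs. At CpGs called in both, the difference from run 2 turned to the other sign at 6 of 7 genes: Gata4 at -9.01 points (-12.8 to -5.67), Sox7 at -4.46 (-7.02 to -2.20), Gata5 at -2.97 (-7.59 to 0.330), Gata3 at -2.85 (-4.34 to -1.49), Gata2 at -2.01 (-3.49 to -0.625) and Sox17 at -0.62 (-2.298 to 0.552). Gata6 stayed at 0.66 (-0.766 to 1.79). At Gata5 the higher H3K27me3 level was therefore found over the window but not at the 110 shared CpGs. When every CpG was weighted equally, the H3K27me3 level was higher by 8.15 to 43.6 points and 5 genes passed the threshold (Gata4, Gata5, Gata6, Sox17 and Sox7), against 36.1% of the 15455 windows. Fisher's exact test (two-sided, Benjamini-Hochberg adjusted over all windows) on the calls of run 2 and the 250000-cell library called 3 genes (Gata5, Gata6 and Sox17), as it did 63.7% of windows, and it compares these libraries, not the marks.

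**Figure D4:**
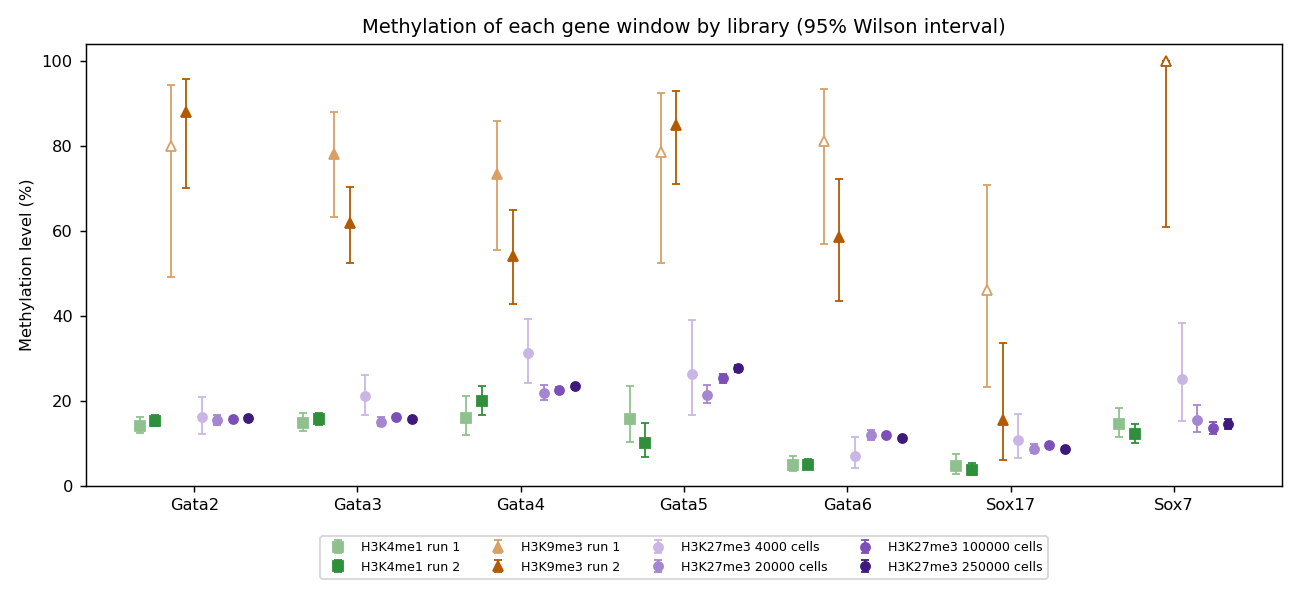
Methylation level of each gene window (%, 95% Wilson interval) in the 8 bisulfite libraries; open symbols mark fewer than 20 calls, and Sox7 had no call in H3K9me3 run 1. H3K4me1 and H3K27me3 levels lie between 3.60 and 31.3%, below the H3K9me3 run 2 levels at 6 genes, while at Sox17 the intervals overlap.

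H3K9me3 calls were few at these genes and over all gene windows: run 2 had a median of 0.0509 calls per CpG here, from 0.0156 (Sox7) to 0.108 (Gata3), and 0.0961 over all windows. Run 1 held 10, 41, 30, 14, 16, 13 and 0 calls at Gata2, Gata3, Gata4, Gata5, Gata6, Sox17 and Sox7, and run 2 held 25, 110, 74, 40, 41, 26 and 6. Together the 7 windows took 51.1 of every 1000000 calls in run 2, against 866 in H3K4me1 run 2 and 4174 in the 250000-cell H3K27me3 library. Only Gata3 and Gata4 reached 20 calls in both runs. The H3K9me3 level was 78.0 and 61.8% in run 1 and run 2 at Gata3, and 73.3 and 54.1% at Gata4. The H3K27me3 level minus their mean was -54.3 points at Gata3 and -40.3 points at Gata4, so both were called, against 49.7% of 8974 windows (47.5% with H3K27me3 lower and 2.16% higher).

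In run 2 alone, 5 of 6 genes with 20 calls were lower on H3K27me3 by at least 20 points and none was higher, against 41.2 and 4.21% of windows. Fisher's exact test, run as for H3K4me1, called the same number, 5 of 6, and 53.2% of windows. Gata2 read 88.0% (70.0 to 95.8%) on H3K9me3 fragments, Gata5 85.0% (70.9 to 92.9%) and Gata6 58.5% (43.4 to 72.2%). Sox17 differed from them, at 15.4% (6.15 to 33.5%) from 26 calls, and its difference from H3K27me3, -6.66 points (-24.8 to 2.58), was within counting error. All of these calls lay outside H3K9me3 peaks. At CpGs that run 2 shared with H3K27me3, the difference was -40.3 points at Gata3 (-50.1 to -29.6; 76 CpGs) and -25.2 at Gata4 (-39.1 to -13; 49 CpGs). It was -28.5 points at Gata2 (-37.3 to -7.17; 16 CpGs) and -32.8 at Gata6 (-49.3 to -16.25; 24 CpGs). At Gata5 it was -6.50 points (-17.7 to 11.2; 25 CpGs) and at Sox17 -6.36 (-24.3 to 1.57; 25 CpGs), both within counting error.

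The final comparison followed H3K27me3 from 250000 down to 4000 cells. From 20000 cells upward, all 7 genes had an H3K27me3 peak, against 29.2% of all gene windows at 20000 and 40.3% at 100000 cells. At 4000 cells only Gata3 had one, against 2.47%: a 1001 bp peak from 10.3 to 11.3 kb before its start, where H3K4me1 run 2 also had a 501 bp peak. The library from 4000 cells gave 495 peaks in all, and cell number and sequencing depth fell together and cannot be told apart.

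The 20000-cell peaks covered 92.1% of the 250000-cell peak bases at Gata3, 83.7% at Gata6, 76.9% at Gata2, 59.4% at Sox17, 58.5% at Sox7, 44.8% at Gata5 and 43.3% at Gata4. At least 50% was recovered at 5 of 7 genes, against 26.8% of 9145 windows, and the medians were 59.4 and 32.3%. At 100000 cells recovery at the 7 genes was from 75.5% (Gata5) to 97.3% (Gata6), with a median of 93.5% against 84.3%. All 7 recovered at least 50%, as did 86.8% of windows, so at that depth the count says little about these genes. At Gata4 the 20000-cell list had peaks of 12818, 2715 and 1001 bp under the 36756 bp peak, from 15.1 to 27.9, 29.5 to 32.3 and 3 to 4 kb into the gene. At Gata5 the main peak was 17165, 11956 and 7691 bp wide in order of falling cell number, each time over the low-methylation core.

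**Figure D5:**
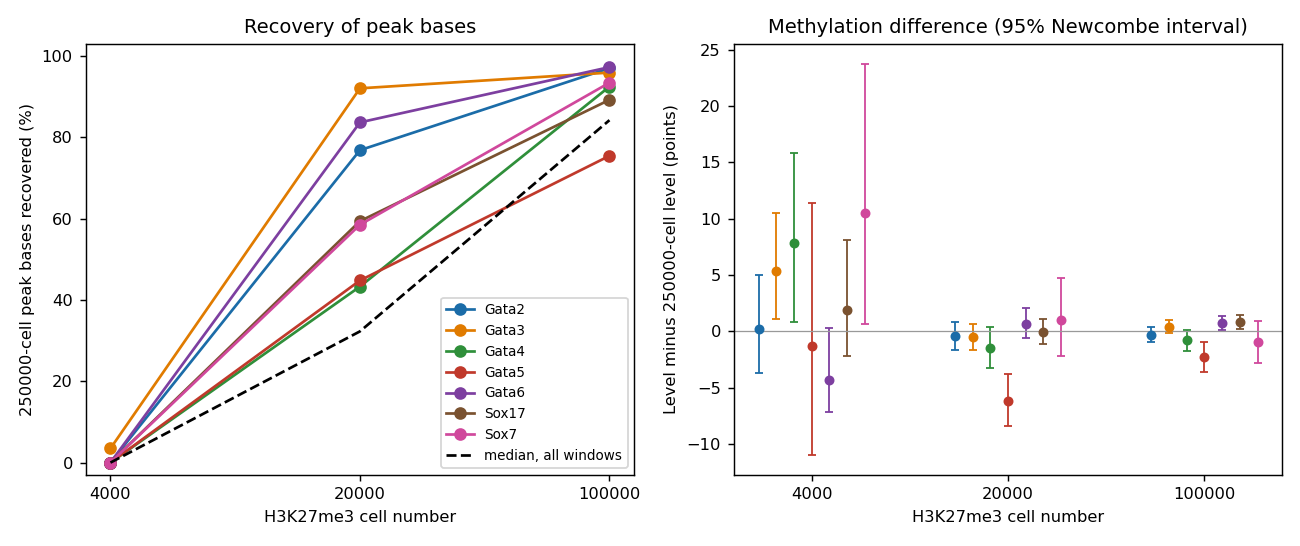
Left, share of the 250000-cell H3K27me3 peak bases (%) under peaks of the smaller libraries by cell number, per gene and as the median of all windows; right, methylation level minus the 250000-cell level (percentage points, 95% Newcombe interval). At 20000 cells recovery spans 43.3 to 92.1%, and the level differences span -6.13 to 1.06 points.

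Methylation levels could be read in all 4 H3K27me3 libraries. In the library from 4000 cells, 52 calls at Sox7 to 290 at Gata3 gave levels of 16.1% at Gata2, 21.0% at Gata3, 31.3% at Gata4, 26.3% at Gata5, 6.88% at Gata6, 10.6% at Sox17 and 25% at Sox7. The difference from 250000 cells was at most 10.5 points (Sox7, interval 0.668 to 23.8), and the interval also excluded 0 at Gata4 (0.853 to 15.9) and Gata3 (1.10 to 10.5). No gene differed by 20 points, against 14% of windows at 4000 cells, 9.54% at 20000 and 5.58% at 100000. The median absolute difference over the 7 genes was 4.28, 0.707 and 0.777 points at 4000, 20000 and 100000 cells, against 8.004, 4.96 and 3.43 over all windows. The 7 windows held more calls than most, which narrows their counting error: at 250000 cells the median gene here had 31.1 calls per CpG, against 0.453 over all windows. Sox17 led with 58.6, a value reached by 0.0925% of windows. Gata5 was the gene whose level moved beyond counting error at both 20000 cells (-6.13 points, -8.35 to -3.77) and 100000 cells (-2.297, -3.62 to -0.959). At 100000 cells the interval also excluded 0, in the other direction, at Gata6 (0.0972 to 1.41) and Sox17 (0.198 to 1.44).

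Peaks were also compared between bisulfite libraries and their controls. Bisulfite H3K27me3 peaks at 250000 cells covered 98.2% of the control's peak bases at Gata3, 95.4% at Gata2, 92.9% at Sox17, 88.5% at Gata4, 85.8% at Gata5, 83.8% at Gata6 and 79.1% at Sox7. All 7 passed 50%, as did 80.1% of 10105 windows. In the other direction, from 99.4 to 100% of the bisulfite peak bases lay in control peaks, so at these genes the control peaks covered more bases. For H3K4me1, run 2 recovered 78.9% of control bases at Gata2, 75.7% at Sox7, 69.5% at Gata3, 55.6% at Gata6 and 44.2% at Sox17. The median over the 6 genes with a control peak was 62.6% in run 2 and 67.9% in run 1, against 75.5 and 79.5% over 10198 windows. In both runs Gata2 and Sox7 lay above the all-window median, and Gata3, Gata5, Gata6 and Sox17 lay below it. The control had a single 501 bp peak at the Gata5 start site that neither run recovered. Both runs had a 501 bp peak at Gata4 that the control lacked.

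Other genes of these families and of the endoderm program carried the same mark to differing extents. Of 29 genes on the list, 23 had a 250000-cell H3K27me3 peak and 9 were covered over at least 50% of the window, beside 42.3 and 5.06% of all windows. All 11 endoderm transcription factors had a peak and 6 passed 50%, whereas 7 of 10 primitive endoderm effector genes had a peak and none passed 50%. Foxa1, a pioneer factor, was covered over 100% of its window, Foxa2 over 89.5% and Gsc, an organizer homeobox gene, over 86.4%, with levels of 15.6, 9.38 and 15.7%. At the other end 6 genes had no peak: Gata1, Ldb1, Trps1, Lamc1, Sparc and Cubn. Gata1, the erythroid factor, read 68.5% methylation from 108 calls on H3K27me3 fragments. Sox18, the remaining SoxF gene, had 56.3% of its window covered at a level of 17.1%, and in cover it lay between Sox7 and Sox17.

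The genes whose peak pattern was most like each member were found by the root mean square difference in window cover over the 11 peak lists. They were Adamtsl5 and Igsf8 for Gata2 (4.22 and 4.30 percentage points), Lhx6 and Icmt for Gata3 (3.66 and 3.67), Slc29a4 and Gm32436 for Gata4 (1.21 and 1.21), and Gm13285 and Cxcl12 for Gata5 (1.64 and 2.07). For Gata6 they were Podxl and Sarm1 (1.72 and 2.07), for Sox17 Sim2 and Map3k6 (2.20 and 2.23), and for Sox7 Thpo and Spsb1 (1.68 and 2.298). A like peak pattern did not come with a like level in every case. Gm13285 was covered over 58.9% of its window by H3K27me3, close to the 56.4% of Gata5, but read 57.7% methylation against 27.6%. Map3k6 read 43.3% against 8.73% at Sox17.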

How the data were processed

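Per the submitters' processing notes, reads were handled with cutadapt 1.12, Bismark 0.23.0, Bowtie2 2.3.0, HOMER 4.10.3 and bedtools 2.29.2 on mm10; the treatment of duplicate reads is not given in the sources used here. The authors deposited, for 21908008 CpGs and 8 bisulfite libraries, raw counts of methylated and of all calls, and 11 peak lists of positions without scores. Every count column was used. From these a level was computed as methylated over all calls in a window, for all 21627 protein-coding genes of the RefSeq table (GRCm38.p6, chromosomes 1 to 19 and X). Windows needed 20 calls, and a difference of 20 percentage points was called. Peaks overlapped when they shared 1 bp. Start sites came from RefSeq promoter entries (Gata2, Gata3, Gata5) or, for the other 4 genes, from whichever gene end had most CpGs inside 1000 bp. Of the 2 Gata2 entries, the one at the gene start was used. Levels have Wilson and differences Newcombe 95% intervals. All 7 genes were named by rule, with the 2 most alike genes each and, of the list, the 3 highest and the lowest (6 tied at 0). Members and lists were chosen with earlier results of these data known. Scripts ran under Python with numpy and scipy and were tested on simulated data.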

Additional observations from a re-analysis of the deposited data

Results flagged for a closer look

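At Gata4 the bases under peaks differed between bisulfite and control in opposite directions for 2 marks: each H3K4me1 bisulfite run had 501 bp more than its control, while H3K27me3 at 250000 cells changed by -4669 bp against its control. The difference between the marks was not tested, and the H3K4me1 side rests on a single short peak.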

How the results depend on the processing

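With no flank, a 20 kb flank, peaks of at least 2000 bp, or the control, unified or 100000-cell list, all 7 genes kept an H3K27me3 peak; asking for 50% of the window covered left 4 in the 250000-cell list. Against H3K4me1 no gene was called under any alternative except equal weight for each CpG (5 of 7; 36.1% of windows) and Fisher's exact test on the calls of run 2, Benjamini-Hochberg adjusted (3: Gata5, Gata6, Sox17; 63.7% of all windows), which compares libraries, not marks; with 3 calls per CpG, 6 genes could be tested. Against H3K9me3 the 2 calls of 2 genes tested became 5 of 6 with run 2 alone (45.4% of windows), 2 of 2 with run 1 alone (50.1%), 3 of 3 with a 20 kb flank (46.9%), 5 of 6 by Fisher's test (53.2%), 1 of 1 at shared CpGs (45.9%), 1 of 2 with equal weight for each CpG (22.1%; Gata4 fell to -9.04 points), and 0 with a minimum of 50 calls or of 3 calls per CpG, where no gene could be tested. The median recovery at 20000 cells of 59.4% became 82.4% without flank, 58.5% with 20 kb, 62.5% for peaks of at least 2000 bp, 55.4% of control peak bases, and 100% as the share of peaks overlapped by 1 bp or covered over 50%. At 100000 cells the same alternatives gave 93.96, 90.97, 93.9, 83.2, 100 and 100%. Recovery of control H3K27me3 bases was 93.6% without flank, 88.6% with 20 kb, 92.5% for wide peaks and 100% as peaks overlapped. That of H3K4me1 control bases, 67.9% in run 1 and 62.6% in run 2, became 69.1 and 51.98% without flank, 65.5 and 60.3% with 20 kb, and 69.7 and 68.3% for wide peaks. The median promoter level of 7.33% was 6.07% within 500 bp, 11.2% within 2000 bp and 2.89% in the CpG-densest 2 kb of the gene. That last setting was added after seeing the data and raised the level at 3 of 7 genes (Gata3, Gata6 and Sox7). At Sox7 it held fewer CpGs (74) than the 2 kb around the start site (129). Of 75 alternatives for the difference at single genes, 52 moved by less than the counting interval and 23 by more. None turned a called difference to the other sign. Equal weight for each CpG did change which genes were called, adding 5 against H3K4me1 and removing Gata4 against H3K9me3. The uncalled difference from H3K4me1 changed sign at 6 of 7 genes at shared CpGs, all but Gata6, and at Sox7 with 3 calls per CpG (-1.38). No paired analysis was possible because H3K27me3 has no run numbers and the results come from no test across samples. Few calls stand behind the H3K9me3 levels (6 to 110 per window in run 2) and the 4000-cell levels (52 to 290).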
